A study of Homo sapiens with 9 samples.

Results

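Solute carriers (SLC) are membrane proteins that move sugars, amino acids, metal ions, nucleotides, vitamins and metabolites across the plasma membrane and the membranes of organelles. The 136 genes described here are those with a solute carrier symbol (SLC, a family number, the letter A and a member number, or SLCO) and a mean of 5 CPM (reads scaled to a common library size) or more in the 3 libraries without 4-thiouridine (4sU). They are 136 of 395 genes with such a symbol in the table. Another 141 of the 395 were listed at 0 in these 3 libraries, and 118 lay above 0 and under 5 CPM. The level without 4sU therefore chose the members, and it is given below only as a description. By annotation, 134 members are protein coding. The other 2, SLC9A3-OT1 and SLC12A2-DT, are long noncoding RNAs, and SLC2A4RG, SLC7A6OS and SLC4A1AP carry the name of a neighbouring or bound transporter without being transporters.

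The libraries came from MCF10A cells, a non-tumorigenic line of human breast epithelium, in which the JUN gene had been knocked out. All cells carried JUN fused to an auxin-inducible degron (JUN-AID) together with the TIR1 expression vector, so that indole-3-acetic acid (IAA) directs the fusion protein to degradation. Cells received DMSO or 100 µM IAA for 1 hour and then 100 µM 4sU for 1 hour more. Libraries without 4sU served as the control, and their labels do not say whether the cells received DMSO. RNA that is made during labelling takes up 4sU, which after iodoacetamide treatment is read as C where the genome has T. The T>C conversion rate of a gene thus rises with the share of its mRNA that is new, and genes with fast mRNA turnover reach high rates in a short pulse. The table holds 3 libraries without 4sU, 3 with DMSO and 4sU, and 3 IAA columns that are identical in all 56868 rows and were counted as 1 library. The study describes its replicates as biological, and the labels give the libraries only numbers.

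The libraries hold 18997637 to 24014195 reads. All 8 basal and epithelial markers were at 1 CPM or more in every library, with KRT5 between 519 and 709 CPM and KRT14 between 3.63 and 10.6 CPM. Of 6 luminal markers, 4 were at that level in every library. The luminal sum was 117 to 158 CPM, and the basal and epithelial sum 1942 to 3551 CPM. Of 8 markers of leukocytes, endothelium and fibroblasts only COL1A1 was at 1 CPM or more in every library, and PTPRC, CDH5 and COL1A2 were at 0 throughout. Their sum was 5.00 to 7.27 CPM without 4sU, 5.50 to 11.3 CPM with DMSO and 4sU and 14.3 CPM with IAA. Replicate 1 without 4sU stood apart for some genes, among them SLC35A4, which had 37.4 CPM there against 12.4 and 14.3 CPM in replicates 2 and 3.

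Transcription of transporter genes is known to answer to supply. Cyclic AMP and calcium signals act through the cAMP response element, zinc acts through the metal response element bound by MTF1, and amino acid shortage acts through ATF4. RefSeq promoters (GRCh38.p14, 250 bases before to 50 after the gene start) were matched to 110 of the 136 members. The promoters of 3 members are printed because these genes lead the carriers, the zinc transporters and the amino acid transporters in conversion rate. Capitals mark the cAMP response element TGACGTCA in SLC25A25, 2 metal response elements (TGCACNC or TGCGCNC on either strand) in SLC30A1, and an AP-1 site, TGANTCA, in SLC3A2. AP-1 is the dimer that JUN forms with FOS proteins.
SLC25A25, chr9:128098257-128098556, plus strand: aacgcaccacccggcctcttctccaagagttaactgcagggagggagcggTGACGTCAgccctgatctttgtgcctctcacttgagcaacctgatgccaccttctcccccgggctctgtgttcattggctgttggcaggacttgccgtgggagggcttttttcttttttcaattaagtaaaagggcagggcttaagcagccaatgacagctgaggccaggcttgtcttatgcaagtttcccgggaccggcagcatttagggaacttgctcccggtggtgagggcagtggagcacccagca
SLC30A1, chr1:211579112-211579411, minus strand: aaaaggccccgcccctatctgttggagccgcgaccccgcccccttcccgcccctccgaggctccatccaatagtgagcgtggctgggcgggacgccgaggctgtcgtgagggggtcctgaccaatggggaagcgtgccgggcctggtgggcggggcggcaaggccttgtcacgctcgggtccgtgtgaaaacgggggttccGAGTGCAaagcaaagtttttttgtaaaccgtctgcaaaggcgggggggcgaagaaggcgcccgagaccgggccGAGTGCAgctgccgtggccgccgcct
SLC3A2, chr11:62881449-62881748, plus strand: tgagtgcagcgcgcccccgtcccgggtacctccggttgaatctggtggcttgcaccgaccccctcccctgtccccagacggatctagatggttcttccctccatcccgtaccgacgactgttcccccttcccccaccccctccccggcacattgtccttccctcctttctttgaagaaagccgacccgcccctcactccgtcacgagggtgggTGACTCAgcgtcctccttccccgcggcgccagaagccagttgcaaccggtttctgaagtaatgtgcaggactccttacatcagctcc

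The cAMP response element was found in 3 of the 110 member promoters (2.73%) and in 540 of 27305 promoters of the table (1.98%). In SLC25A25 it began at position -200 from the gene start. The other 2 member promoters that hold it belong to SLC25A36, a mitochondrial pyrimidine nucleotide carrier, and SLC31A1, the copper uptake transporter. All 3 sites are shown with 10 bases on each side and the element in capitals, on GRCh38.p14 and the plus strand.
SLC25A25, chr9:128098297-128098324: gagggagcggTGACGTCAgccctgatct
SLC25A36, chr3:140941709-140941736: gcagagtgcgTGACGTCAcgacgctcac
SLC31A1, chr9:113221442-113221469: gagcgccgagTGACGTCAggcctctcca
The mean conversion rates of the 3 genes with DMSO and 4sU were 5.37%, 0.456% and 0.164%. SLC25A25 and SLC25A36 lay above the median of all members and SLC31A1 below it. Whether the element goes with the rate was not tested.

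Metal response elements were found in 35 of 110 member promoters (31.8%) and in 29.4% of all promoters, and the 2 in SLC30A1 began at -49 and 24 from the gene start. AP-1 sites were found in 4 member promoters, those of SLC38A1, SLC3A2, SLC43A2 and SLC50A1 (3.64%), and in 7.76% of all promoters. TEAD sites, CATTCC on either strand, were in 10 member promoters (9.09%) and 14.1% of all promoters. TEAD proteins are the DNA-binding partners of YAP. E-boxes, CACGTG, were in 13 member promoters (11.8%) and 7.43% of all promoters. The amino acid response element TGATGNAA was in 5 member promoters (4.55%), among them SLC3A2, SLC7A1 and SLC38A1, against 3.67% of all promoters. The antioxidant response element TGACNNNGC was in 25 member promoters (22.7%) and 13.6% of all promoters. It overlaps in letters with the cAMP response and AP-1 elements, and a match of letters is not a bound site.

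After the 1 hour pulse the median conversion rate of the 136 genes was 0.184% ± 0.0394 (SD, n = 3 library medians) with DMSO and 4sU. It was 0.0572% ± 0.000601 (SD, n = 3) without 4sU. By library the median was 0.229, 0.159 and 0.163% in replicates 1, 2 and 3 with 4sU, and 0.206% in the IAA library. Over the 8804 features with enough reads for a test the library medians were 0.207% ± 0.0355 (SD, n = 3) with 4sU and 0.0580% ± 0.00131 without. The median of the transporters was below that of all features in each of the 4 labelled libraries.

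The rate passed the test, limma on log2(rate + 0.0005) with Benjamini-Hochberg adjustment over all features, as higher with 4sU for 57 of 136 members and as lower for 0. All 136 had enough reads for this test. These 57 are 41.9% of the members, and 57.3% of all 8804 features passed the same test. Of the features tested at 5 CPM or more without 4sU, 57.8% passed. The median log2 difference was 0.93 over members and 1.18 over all features. For 81 members (59.6%) all 3 libraries with 4sU lay above all 3 without, which held for 67.7% of all features tested. Of 26 members at 50 CPM or more, 14 passed the test, where 64.3% of all features at that level passed. Of 32 members under 10 CPM, 10 passed, against 45.7% of all features at 5 to 10 CPM. The share was lower at the lower level for members and for all features alike. For 2 of the 57, SLC22A4 and SLC38A12, every library without 4sU was at 0, so that they entered the test only through the labelled libraries.

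**Figure D1:**
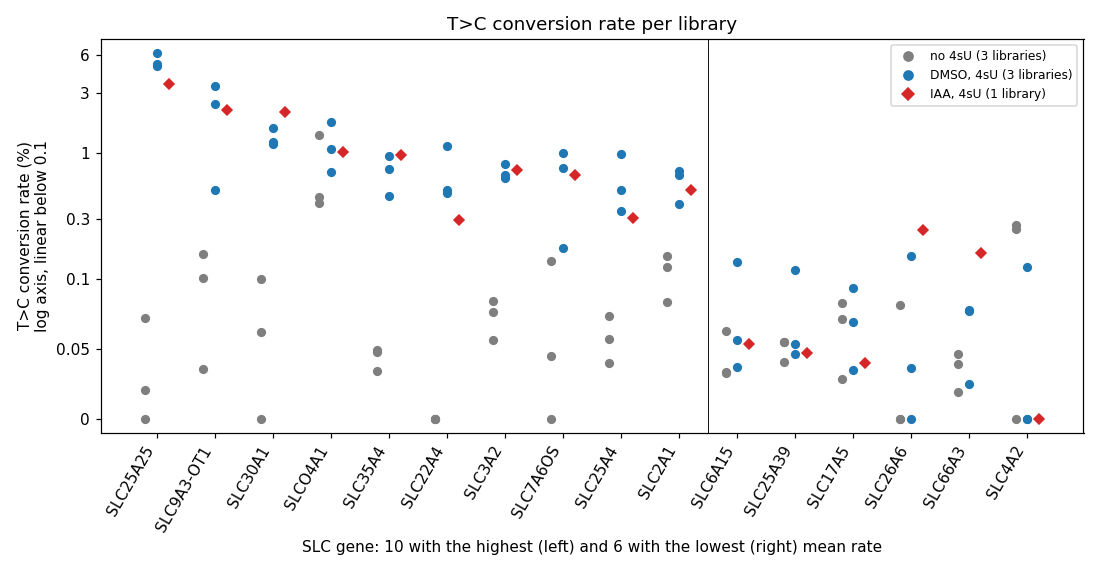
T>C conversion rate in percent (log axis, linear below 0.1) in each library for the 10 members with the highest and the 6 with the lowest mean rate over the 3 DMSO 4sU libraries. Points are single libraries: 3 without 4sU, 3 with DMSO and 4sU, 1 with IAA and 4sU. SLC25A25 sits near 5% with 4sU and at or below 0.072% without, while for the 6 genes on the right the groups overlap.

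SLC25A25 stood far above the rest. It encodes a calcium-regulated carrier that exchanges ATP-magnesium for phosphate across the inner mitochondrial membrane (gene at chr9:130830480-130871524 on GRCh37). Its rate was 6.15, 4.90 and 5.05% in the 3 DMSO libraries with 4sU, 3.52% with IAA, and 0.0202, 0 and 0.0720% without 4sU. The groups did not come near each other, and the log2 difference was 6.16 (SE 0.36, adjusted p = 8.61e-05). The next mean among transporter mRNAs was 1.32%, for SLC30A1. Only 107 to 317 reads per library lie behind the SLC25A25 values.

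Mitochondrial carriers of the SLC25 family, which pass metabolites, nucleotides and phosphate through the inner membrane, made up 27 of the members. Their median rate was 0.206%, and 11 of 27 passed the test. Family counts here and below stand beside the 57.3% of all features that passed. SLC25A4, the muscle-type ADP/ATP carrier, had 0.983, 0.501 and 0.342% with DMSO and 4sU against 0.0400, 0.0729 and 0.0569% without (log2 difference 2.52, SE 0.41, adjusted p = 0.00315). SLC25A28, a mitochondrial iron importer, had 0.279, 0.854 and 0.476% with 4sU and 0.127, 0.0254 and 0.0878% without (adjusted p = 0.0103). Its paralogue SLC25A37 had 0.280, 0.0884 and 0.141% with 4sU, overlapping the 0.0368 to 0.107% without, and missed the threshold (adjusted p = 0.0900). Without replicate 2 the calls of this pair changed places: SLC25A37 passed with a log2 difference of 1.42 and SLC25A28, at 1.41, did not. The SLC25A28 call was also lost without replicate 3 (adjusted p = 0.0565).

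The carriers with most reads had low rates. SLC25A3, the phosphate carrier that feeds ATP synthase, had the most reads of all members, 388, 426 and 451 CPM without 4sU. Its rate was 0.115, 0.105 and 0.0861% with 4sU and 0.0492, 0.0370 and 0.0544% without, which separated the groups and gave an adjusted p of 0.0539. SLC25A5, the ADP/ATP carrier of dividing cells, had 0.149, 0.0715 and 0.110% with 4sU and 0.0408, 0.0587 and 0.0658% without (adjusted p = 0.103). SLC25A5 has many processed pseudogenes that could share reads with it. Its paralogue SLC25A6 was listed at 0 in every library, so the pair could not be compared. SLC25A39, which brings glutathione into mitochondria, had one of the 6 lowest rates of all, 0.117, 0.0463 and 0.0533% with 4sU against 0.0402 to 0.0549% without.

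**Figure D2:**
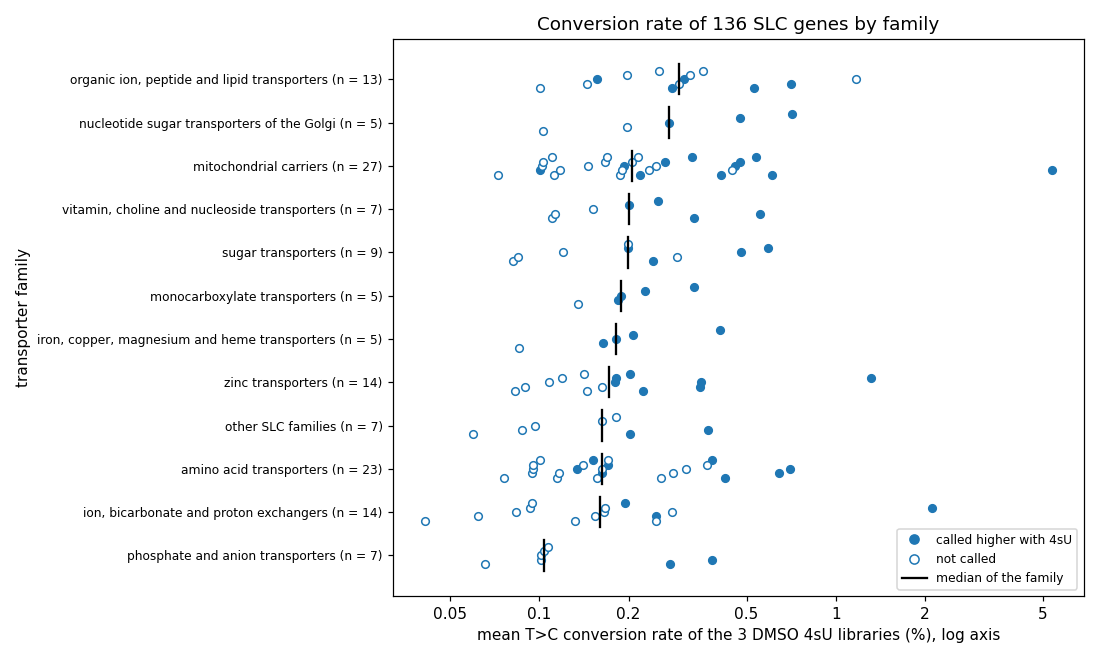
Mean T>C conversion rate (percent, log axis) over the 3 DMSO 4sU libraries for each of the 136 members, grouped by transporter family, with the family median as a vertical line. Filled points passed the test as higher with 4sU. Family medians run from 0.104% (phosphate and anion transporters) to 0.296% (organic ion, peptide and lipid transporters), and single members such as SLC25A25 at 5.37% and SLC30A1 at 1.32% lie far to the right of their families.

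Zinc transporters comprise the SLC30 proteins, which move zinc out of the cytosol, and the SLC39 proteins, which bring it in. Of 14 members 7 passed the test, with a family median of 0.172%. SLC30A1, the zinc exporter of the plasma membrane, had 1.21, 1.17 and 1.57% with DMSO and 4sU and 0, 0.0620 and 0.0998% without (log2 difference 3.85, SE 0.44, adjusted p = 0.000956). In the IAA library it had 2.11%, above all 3 DMSO libraries. After centring each library on its median, 52.6% of members and 49.6% of all features lay outside the DMSO range with IAA. Its total mRNA was steady at 8.64 to 10.5 CPM in all 7 libraries, from 168 to 218 reads each. SLC30A7, which loads zinc into the Golgi, followed with 0.544, 0.281 and 0.229% against 0.0432 to 0.0526% (adjusted p = 0.00391).

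By mean rate with DMSO and 4sU the SLC39 and SLC30 members overlapped, with 0.349% for SLC39A4 and 0.163% for SLC30A6. The zinc importers given next lay below SLC30A1 and SLC30A7 in each DMSO library with 4sU. SLC39A1 had 0.237, 0.179 and 0.189% with 4sU and 0.0337 to 0.05% without (adjusted p = 0.00272). SLC39A6, the importer with most reads at 203 to 212 CPM without 4sU, had 0.0804, 0.0940 and 0.0748% with 4sU and 0.0512 to 0.0568% without. These groups did not overlap, but the log2 difference of 0.35 did not pass (adjusted p = 0.229). These values come from its interval with most CPM. On the mean rate over its intervals the log2 difference was 3.09, which also did not pass (adjusted p = 0.0599). Its partner in a heteromeric importer, SLC39A10, had 0.126, 0.162 and 0.135% with 4sU against 0.0608 to 0.116% (adjusted p = 0.148).

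Amino acid transporters numbered 23, with a median of 0.162% and 8 that passed, or 7 of 22 without SLC7A6OS. SLC3A2 encodes 4F2hc, the heavy chain that carries the light chains SLC7A5 and SLC7A11 to the cell surface. Its rate was 0.818, 0.663 and 0.630% with 4sU and 0.0561, 0.0761 and 0.0840% without (log2 difference 2.62, SE 0.28, adjusted p = 0.000678). The light chains were far lower. SLC7A5, the large neutral amino acid exchanger, had 0.168, 0.113 and 0.120% with 4sU and 0.0566 to 0.0694% without (adjusted p = 0.0433). SLC7A11, the cystine/glutamate exchanger, had 0.189, 0.0741 and 0.0859% against 0.0526 to 0.0642% (adjusted p = 0.155). The heavy chain lay above both light chains in each of the 4 labelled libraries, with 0.733% against 0.255 and 0.203% for IAA. SLC7A5 shares sequence with the pseudogenes SLC7A5P1 and SLC7A5P2, and its call was lost in every fit that left out a replicate.

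The glutamine and neutral amino acid transporters SLC38A1 and SLC38A2 are neighbours on chromosome 12 and paralogues. SLC38A2, a transporter known to be induced by amino acid shortage, had 0.517, 0.476 and 0.280% with DMSO and 4sU, 0.401% with IAA, and 0.0634 to 0.0736% without 4sU (log2 difference 1.98, SE 0.31, adjusted p = 0.00271). SLC38A1 had 0.178, 0.172 and 0.107% with DMSO and 4sU, 0.139% with IAA, and 0.0536 to 0.0580% without (log2 difference 0.92, SE 0.25, adjusted p = 0.0179). SLC38A2 was higher than SLC38A1 in all 4 labelled libraries. The SLC38A1 call was lost without replicate 1 and without replicate 2.

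Of 9 amino acid response genes among the transporters, targets of ATF4 by textbook knowledge, 6 were members and 4 passed: SLC3A2, SLC38A2, SLC7A1 and SLC7A5. The 6 lay at 53.1 CPM or more without 4sU, and 64.3% of all features at 50 CPM or more passed, so the count was near that share. SLC7A1, the cationic amino acid transporter, had 0.239, 0.104 and 0.168% with 4sU and 0.0549 to 0.0670% without (adjusted p = 0.0310). Like that of SLC7A5, the SLC7A1 call was lost in every fit that left out a replicate (adjusted p of 0.0575 to 0.132). SLC1A5, the glutamine exchanger, had 0.218, 0.377 and 0.179% with 4sU, but its rate without 4sU was already 0.190, 0.236 and 0.132%, so the groups overlapped (adjusted p = 0.389). SLC1A4, SLC6A9 and SLC43A1 lay under 5 CPM. SLC38A12 (TMEM104 by its older symbol) was at 0% in all 3 libraries without 4sU and at 0.303, 0.433 and 0.414% with it, from 86 to 185 reads. SLC6A15, a neutral amino acid transporter, was among the 6 lowest with 0.136, 0.0560 and 0.0370%.

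Sugar transporters had a median of 0.2% and 4 of 9 passed, or 3 of 8 without SLC2A4RG. SLC2A1, the glucose transporter GLUT1, had 0.717, 0.393 and 0.661% with DMSO and 4sU, 0.506% with IAA, and 0.0830, 0.124 and 0.15% without 4sU (log2 difference 1.90, SE 0.34, adjusted p = 0.00415). Its paralogue SLC2A3 stayed at 0.333 to 1.05 CPM and its rate was not tested. Nucleotide sugar transporters of the Golgi, which supply glycosylation, had a median of 0.275% and 3 of 5 passed. SLC35A4 led them with 0.948, 0.736 and 0.449% against 0.0342 to 0.0491% (adjusted p = 0.00088), and SLC35A2, the UDP-galactose transporter, had 0.309, 0.248 and 0.267% against 0.0321 to 0.0596% (adjusted p = 0.002).

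Monocarboxylate transporters carry lactate and pyruvate with protons, and 4 of 5 members passed. SLC16A3, the lactate exporter MCT4, had 0.450, 0.264 and 0.284% with 4sU and 0.0393 to 0.101% without (log2 difference 1.73, SE 0.33, adjusted p = 0.00555). SLC16A1, MCT1, had 0.211, 0.181 and 0.173% with 4sU and 0.0864 to 0.101% without (log2 difference 0.74, SE 0.24, adjusted p = 0.0338). MCT4 was above MCT1 in all 4 labelled libraries, and the MCT1 call was lost in every fit that left out a replicate.

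Phosphate and anion transporters had the lowest family median, 0.104%, with 2 of 7 passing. Both were sodium-phosphate importers. SLC20A1 had 0.455, 0.342 and 0.354% with 4sU, 0.409% with IAA, and 0.0482 to 0.0614% without, from 5876 to 8318 reads per library (log2 difference 2.04, SE 0.26, adjusted p = 0.00133). SLC20A2 had 0.279, 0.230 and 0.318% against 0.0422 to 0.0679% (adjusted p = 0.00250). The ranges of these paralogues came close, at 0.342 and 0.318%, without overlapping. SLC17A5, the lysosomal sialic acid exporter, had 0.0346, 0.0934 and 0.0688% against 0.0283 to 0.0825%, so that only replicate 2 with 4sU lay above the range without.

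Among organic ion, peptide and lipid transporters 5 of 13 passed, with the highest family median, 0.296%. SLC22A4, the ergothioneine transporter, was at 0% in all 3 libraries without 4sU and at 0.508, 1.13 and 0.480% with it, from 105 to 181 reads. SLC22A5, the carnitine transporter, had 0.417, 0.190 and 0.315% against 0.0430 to 0.0698% (adjusted p = 0.00483). SLCO4A1, an organic anion and thyroid hormone transporter, had 1.74, 0.697 and 1.06% with 4sU, but 0.397, 0.448 and 1.37% without, so the groups overlapped (adjusted p = 0.238). A mean rate of 0.15% or more without 4sU was seen in 11 members, among them SLC38A7 with 0.389%, SLC46A1 with 0.241% and SLC4A2 with 0.171%. The source of these conversions was not tested.

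The families of ion, bicarbonate and proton exchangers had 3 of 14 called and a median of 0.160%. Without SLC9A3-OT1, SLC12A2-DT and SLC4A1AP, which are not transporters, 2 of 11 were called and the median was 0.132%. The long noncoding RNA SLC9A3-OT1 held the second rank among all members with 2.45, 0.509 and 3.35% against 0.0356 to 0.158% (adjusted p = 0.00599), from 68 to 148 reads, and its call was lost without replicate 1 (adjusted p = 0.0640). It is transcribed at the SLC9A3 locus, and whether reads were counted by strand is not given in the sources used here. SLC26A2, a sulfate transporter, had 0.236, 0.177 and 0.172% against 0.0437 to 0.0953% (adjusted p = 0.0209). Its call was lost in every fit that left out a replicate (adjusted p of 0.0579 to 0.110) and with the replicate block (adjusted p = 0.0510). SLC12A2, the sodium-potassium-chloride cotransporter NKCC1, had 0.195, 0.162 and 0.106% with 4sU and 0.0499 to 0.105% without (adjusted p = 0.0642). SLC4A2, a chloride-bicarbonate exchanger, had the lowest rate of all members, 0, 0.123 and 0% with 4sU, and 0.266, 0 and 0.247% without (adjusted p = 0.255). Without replicate 2 it passed as lower with 4sU (log2 difference -2.62, adjusted p = 0.00863). SLC26A6 had 0.15, 0.0364 and 0% with 4sU.

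Iron, copper and magnesium transporters had 4 of 5 called with a median of 0.181%. SLC41A1, a magnesium transporter, led with 0.190, 0.315 and 0.717% against 0.0563 to 0.0930% (adjusted p = 0.0162), and its call was lost without replicate 2 (adjusted p = 0.0558) and without replicate 3 (adjusted p = 0.0694). Vitamin, choline and nucleoside transporters had 4 of 7 called and a median of 0.2%. SLC46A1, the proton-coupled folate transporter, had 0.575, 0.565 and 0.520% with 4sU and 0.147, 0.224 and 0.351% without (adjusted p = 0.0234), a call lost without replicate 1 (adjusted p = 0.111) and without replicate 2 (adjusted p = 0.115). SLC19A1, the reduced folate carrier, had 0.172, 0.130 and 0.153% with 4sU and 0.138, 0.0623 and 0% without (adjusted p = 0.109). The thiamine transporter SLC19A2 lay just under the member threshold at 3.51 to 4.83 CPM without 4sU, and was not tested although its rates were 1.11, 1.68 and 0.500% with 4sU. Of 7 members in other families 2 passed, SLC66A2 at 0.438, 0.270 and 0.406% (adjusted p = 0.00346) and SLC71A2, and SLC66A3 was among the 6 lowest with 0.0244, 0.0771 and 0.0776%.

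The order of rates across members carried between libraries only in part. Across the 136 genes, which are not independent replicates and share the library and its depth, Spearman's correlation was 0.405, 0.572 and 0.512 for the 3 pairs of DMSO 4sU libraries. The correlation of the rate with 4sU and the level without was -0.189, and with the length of the counted interval -0.0487. In GENCODE on GRCh37 the counted interval of 58 members matched an annotated 3' UTR piece of exactly its length at 1 position. AU-rich elements in 3' UTRs are a known mark of short-lived mRNAs. The nonamer TTATTTATT was in 6 of the 58, those of SLC12A8, SLC26A2, SLC37A1, SLC46A1, SLC4A7 and SLC7A5, with a median rate of 0.164%. The other 52 had a median rate of 0.165%. For the pentamer ATTTA per kilobase the correlation with the rate was -0.142 over the 58. SLC38A2, at chr12:46751971-46754896 on the minus strand, held 11 pentamers in 2926 bases and no nonamer.

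Total mRNA was compared between DMSO with 4sU and no 4sU, which asks whether labelling goes with a change in level. Because the level without 4sU chose the members, calls were counted over the 178 genes with a solute carrier symbol and a mean of 1 CPM or more over the 6 libraries. Of these, 1 fell and 0 rose by limma on log2(CPM + 1), and 1.73% of all 11386 features fell. At an unadjusted p under 0.05, 4 of the 178 were lower and 2 higher. That threshold gave 558 lower and 191 higher among the 8804 features of the rate test. These passed another filter than the 178 genes, so the shares are not like for like. The edgeR quasi-likelihood test called 1 lower and DESeq2 2, both on recovered reads. The median log2 difference was 0.10 over the 178 genes.

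The gene that fell was SLC25A25. It had 15.7, 11.3 and 9.21 CPM without 4sU and 5.64, 6.50 and 5.33 CPM with DMSO and 4sU, and 6.48 CPM with IAA. The groups did not overlap, and the log2 difference was -0.96 (SE 0.19, adjusted p = 0.0366). The call was lost without replicate 2 (adjusted p = 0.319), without replicate 3 (adjusted p = 0.429), on CPM as deposited (adjusted p = 0.0969) and among features at 5 CPM or more (adjusted p = 0.0528), with the fall between -0.91 and -1.05 in these fits. SLC25A25 is also the member with the highest conversion rate, and whether strongly converted reads were lost at mapping was not tested.

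SLC22A15, a member of the organic cation transporter family, came next with 6.18, 8.49 and 8.53 CPM without 4sU and 3.81, 5.16 and 3.93 CPM with it. The log2 difference was -0.77 (SE 0.22, adjusted p = 0.156), and DESeq2 on recovered reads put it past the threshold (adjusted p = 0.0408). SLC22A5 had 92.7, 84.3 and 70.6 CPM without and 51.3, 78.7 and 60.4 CPM with 4sU, overlapping groups with a log2 difference of -0.45 (adjusted p = 0.458). SLC16A9 had 12.2, 14.1 and 15.7 CPM without and 28.3, 18.4 and 21.2 CPM with 4sU (log2 difference 0.58, adjusted p = 0.328). SLC38A2 had 126, 238 and 219 CPM without and 125, 165 and 163 CPM with 4sU (log2 difference -0.38, adjusted p = 0.739), where replicate 1 was low in both groups. Without replicate 1 it passed with a log2 difference of -0.59.

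**Figure D3:**
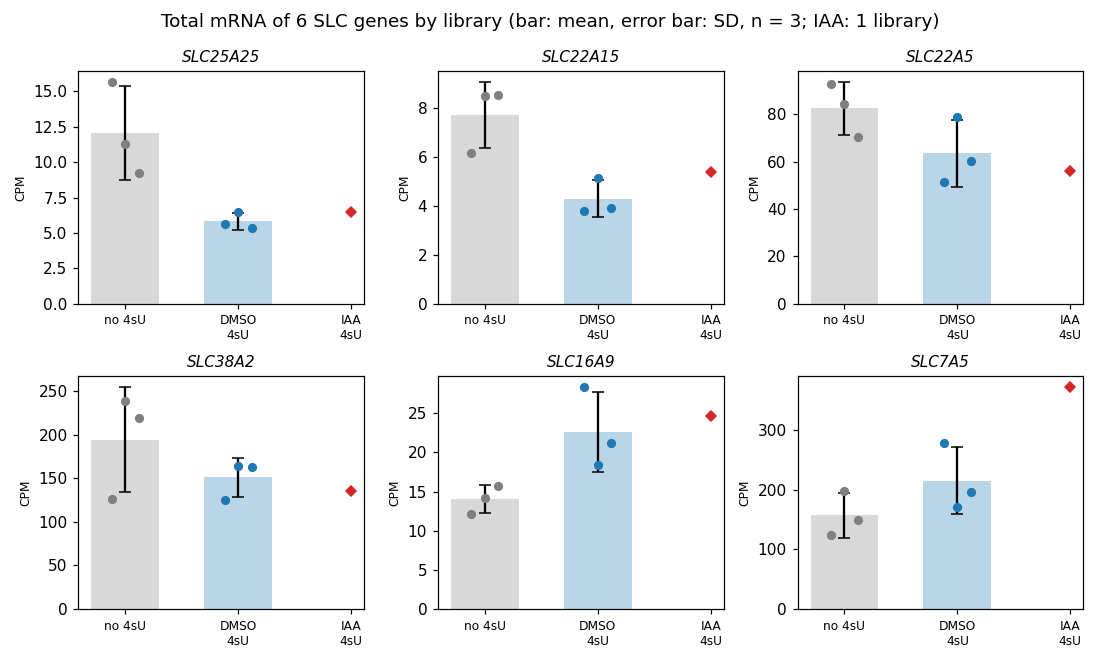
CPM in each library for 6 members, with bars for the mean and error bars for the SD of the 3 libraries without 4sU and the 3 with DMSO and 4sU, and a diamond for the IAA library. Between the first 2 groups SLC25A25 and SLC22A15 are separated as lower with 4sU and SLC16A9 as higher. SLC22A5 and SLC38A2 overlap, and SLC7A5 is highest with IAA at 372 CPM.

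Transport partners and regulators outside the SLC names, a list of 30 genes, had 17 that rose in rate with 4sU, 1 that fell in total mRNA and 0 that fell in rate. These 17 are 56.7% of the list, close to the 57.3% of all features. The 5 highest mean rates belonged to SGK1, ARRDC3, TXNIP, MTF1 and ATF4. SGK1, a kinase that acts on sodium and nutrient transporters, had 6.80, 5.83 and 5.62% with DMSO and 4sU, and TXNIP, an arrestin-like protein that removes GLUT1 from the surface, had 3.78, 4.21 and 3.02%. ARRDC3 had 4.77, 2.67 and 3.78%. The zinc sensor MTF1 had 1.00, 0.725 and 1.27%, and ATF4 0.631, 0.478 and 0.554%. Other regulators of the list lay below these 5. The kinase STK39 had a mean of 0.125% and did not pass (adjusted p = 0.516). OXSR1 at 0.162% (adjusted p = 0.0260), NEDD4L at 0.177% (0.00993), WNK1 at 0.298% (0.0269) and NEDD4 at 0.335% (0.00683) passed. The gene that fell in total mRNA was SGK1, from 15.0, 15.5 and 17.5 CPM to 4.93, 3.37 and 3.93 CPM (log2 difference -1.81, adjusted p = 0.0015). The voltage-dependent anion channels VDAC1, VDAC2 and VDAC3, which serve the carriers, were called in 0 cases, with means of 0.100, 0.118 and 0.112%. Of 33 SLC genes with another letter than A, 20 were tested and 9 rose in rate, among them SLC35F2 with 0.387, 0.411 and 0.427% and SLC35C1, a Golgi GDP-fucose transporter, with 0.465, 0.719 and 0.402%.

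Degradation of JUN was compared within the labelled libraries. With 1 IAA library there is no test, and a gene was counted where its IAA value was higher or lower than every DMSO library and differed from the DMSO mean by 1 log2 unit or more, after centring each library on its median. The conversion rate could be compared for 133 members. SLC9A3-OT1, SLC22A15 and SLC4A2 had under 100 reads on average or too few rates above 0. Of the 133, 15 were counted (11.3%), against 13.6% of all 8816 features. Of the 15, 12 were lower with IAA and 3 higher, while the 1198 features counted split into 600 lower and 598 higher. Without centring the members split into 9 lower and 5 higher. The median log2 difference was -0.06 over the members and -0.01 over all features.

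The largest differences came from genes with few reads. SLC38A12 had 0.303, 0.433 and 0.414% with DMSO and 0.0405% with IAA, a centred log2 difference of -2.38. SLC25A40, a mitochondrial glutathione carrier, had 0.258, 0.401 and 0.136% with DMSO and 0.0185% with IAA (-2.24). SLC38A9, the lysosomal arginine sensor of the mTORC1 pathway, had 0.424, 0.0368 and 0.0504% with DMSO and 0.700% with IAA (2.09). SLC35A1, the CMP-sialic acid transporter, had 0.546, 0.355 and 0.527% with DMSO and 0.0922% with IAA (-2.00), and SLC45A4 had 0.503, 0.171 and 0.761% and 0.0911% (-1.85). These 5 genes had 86 to 327 reads in each labelled library, and 7 of the 15 were among the 29 members under 10 CPM that could be compared. SLC10A3, with 420 to 469 reads, had 0.118, 0.139 and 0.213% with DMSO and 0.698% with IAA (1.75). Of the 26 members at 50 CPM or more, 0 were counted. Among all features tested for labelling, 0.728% were counted at 50 CPM or more and 29.4% at 5 to 10 CPM, so the counts followed the level in both.

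**Figure D4:**
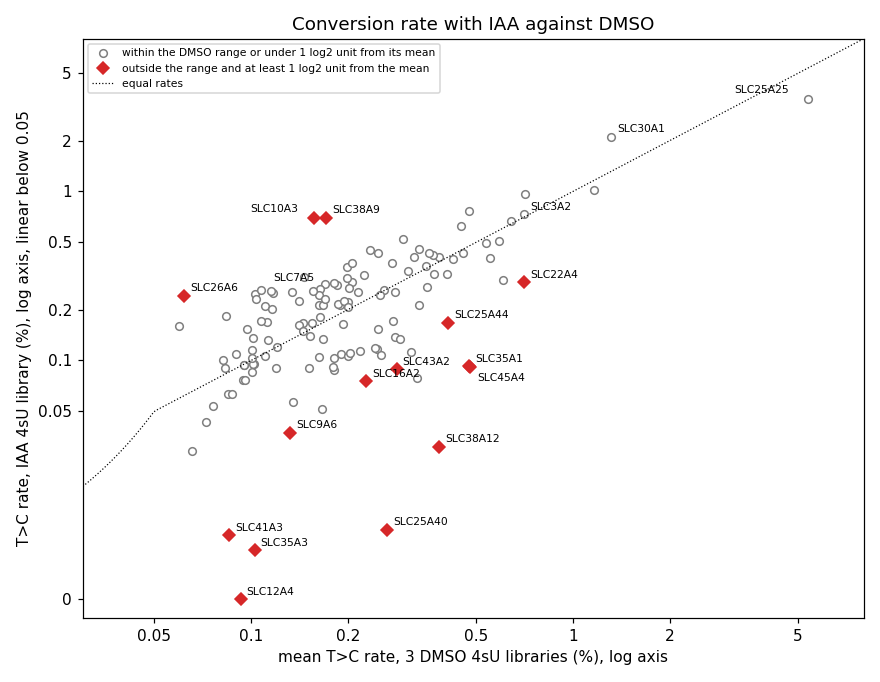
T>C rate in the IAA library (percent, log axis, linear below 0.05) against the mean rate of the 3 DMSO 4sU libraries (percent, log axis) for 133 members. Diamonds mark the 15 members counted as different, 12 below and 3 above, and the dotted line marks equal rates. SLC25A25, SLC30A1 and SLC3A2 were not counted. Among the diamonds is SLC22A4, with a mean of 0.707% with DMSO and 4sU, close to SLC3A2 at 0.703%.

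Total mRNA with IAA differed by this rule for 0 of 136 members, against 0.133% of all 11294 features. The 2 largest rises were SLC26A6, from 16.3, 9.33 and 7.67 CPM with DMSO to 20.0 CPM with IAA (log2 difference 0.79), and SLC7A5. SLC7A5 had 279, 171 and 195 CPM with DMSO and 372 CPM with IAA (log2 difference 0.74), and its conversion rate of 0.255% with IAA also lay above the 0.113 to 0.168% with DMSO. Lying outside the DMSO range was common. It held in rate, after centring, for 52.6% of members and 49.6% of all features, and in total mRNA for 32.4% and 41.3%. The 2 largest falls were SLC7A2, a cationic amino acid transporter, from 10.3, 15.2 and 18.2 CPM to 9.47 CPM (-0.61), and SLC39A8, a zinc and manganese importer, from 53.0, 119 and 89.5 CPM to 58.2 CPM (-0.58). The IAA value of SLC39A8 was inside its DMSO range on the deposited scale. Replicate 1 was the nearest DMSO library to the IAA value for all 4 of these genes.

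The study grouped YAP-induced genes into clusters in other samples, and their solute carriers were looked up here. Of 8 in the cluster that lost induction when JUN was overexpressed, 6 were members and 2 of these passed as labelled, SLC3A2 and SLC7A5. Of all features tested, 57.3% passed. SLC43A3, a purine base transporter, had 0.0810, 0.126 and 0.0953% against 0.0558 to 0.0761%, and SLC25A15 and SLC1A5 did not pass. SLC16A5 and SLC48A1 lay under 5 CPM. Of the second cluster SLC7A1 and SLC22A5 were members and passed, and SLC4A5, SLC7A5P2 and SLC16A13 were under 5 CPM. Of the third, SLC7A2, SLC22A15 and SLC38A2 were members and the last 2 passed, SLC22A15 not without replicate 3 (adjusted p = 0.0955). With IAA, 0 of the members in these clusters were counted in rate or in total mRNA. The IAA rate of SLC22A15 could not be compared. Of all features, 13.6% were counted in rate, and 0.728% of those tested at 50 CPM or more. Changes under 1 log2 unit are not counted by this rule. The median log2 difference in rate was 0.14, 0.15 and -0.08 for the 3 clusters in turn, and -0.06 over all members. Whether the clusters differ in this was not tested. The study reports that YAP/TAZ target genes were induced in new mRNA after JUN degradation, with no significant change in total mRNA.

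Just inside the threshold lay SLC45A4 at 5.00 and SLC38A12 at 5.26 CPM without 4sU. Just outside lay SLC44A5 at 4.83, SLC25A33 at 4.72 and SLC16A4 at 4.71 CPM. Of 6 solute carrier genes outside the members that had enough reads for the rate test, 0 passed.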

How the data were processed

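SLAM-Seq libraries, made with the QuantSeq 3' kit, were measured in the samples described above. The authors deposited 1 table with the T>C conversion rate (a fraction) and CPM per RefSeq 3' interval. The study's methods name a Nextflow pipeline for SLAM-Seq (nf-core/slamseq), and the submitters' processing notes name the build hg19. The pipeline's version, settings and strand handling are not given in the sources used here. The deposited CPM values are a signal whose steps gave whole reads in 100% of values (within 0.01 read), and these recovered counts served edgeR and DESeq2. Reads that carry many conversions can be lost at mapping, which lowers CPM and rate of strongly labelled genes.

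Of 56868 rows, 97.7% matched a RefSeq symbol. Each gene was read from its interval with most CPM without 4sU, and 50 members had more than 1 interval. Conversion rates were tested with limma 3.58.1 on log2(rate + 0.0005) over features with a mean of 100 reads or more and a rate above 0 in at least 3 libraries. CPM was tested with limma on log2(CPM + 1) after TMM scaling (edgeR 4.0.16) over features at a mean of 1 CPM or more; such fold changes understate low genes. DESeq2 1.42.0 was an alternative, under R 4.3.3 and Python 3.11.15. Benjamini-Hochberg adjustment ran over all features with a threshold of 0.05. The IAA columns were counted once and not tested. All scripts with tests were tested on simulated data.

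For CPM, libraries with the same replicate number deviated together (correlations of 0.394, 0.320 and 0.378 over 11386 features), and the fit with the replicate number as a block changed no call among the transporters. Members, families and lists were chosen with earlier results of these data known. Genes were named by a rule: the 10 highest and 6 lowest rates, all calls in total mRNA, the 5 largest IAA differences, the 8 with most CPM, the highest rate per family, 3 on each side of the threshold, cluster, ATF4 and paralogue genes. SLC30A6, SLC30A7, SLC39A1, SLC39A4, SLC35A2, SLC38A7, SLC25A36, SLC31A1, SLC10A3, SLC71A2, SLC16A9 and SLC39A8 were named after their values were seen. The same holds for the genes named from the other lists. Older symbols come from RefSeq. Some genes are not reported here.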

Additional observations from a re-analysis of the deposited data

How the results depend on the processing

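Most results kept to within 1.5 times their value. Of 43 alternatives for the counts and the median rate, 29 stayed within that bound (within 1 SD for the median) and 14 did not. Labelled members numbered 33 to 41 when a replicate was left out, 33 without replicate 1, and 24 genes were called in all 3 such fits. With the replicate number as a block 50 members were called, but rates of same-numbered libraries did not deviate together (correlations of 0.00934, -0.00781 and -0.00278). The count of transporters lower in total mRNA was 2 with DESeq2, 0 on deposited CPM, 2 with any value above 0 in 3 libraries, 0 at 5 CPM or more and 0 to 3 when a replicate was left out, 3 without replicate 1 and 0 without replicate 2 or 3. With the replicate block it stayed at 1. Members counted for the IAA rate numbered 27 with a pseudocount of 0.0001, 6 with 0.002, 9 at 200 reads or more, and 18 to 26 without a DMSO replicate, 26 without replicate 2. For total mRNA 0 to 1 were counted, the 1 being SLC26A6 without DMSO replicate 1. The mean rate over members was 0.293% against a median over members of 0.186%. Leaving out a replicate reversed the direction for SLC25A15 in rate (-0.12 to 0.94, lowest without replicate 1) and for SLC7A5 in total mRNA (-0.0138 to 0.73, lowest without replicate 1). SLC30A1 in total mRNA, with a main log2 difference of -0.05, went to 0.00655 without replicate 1 and 0.00856 on deposited CPM. For single named genes 419 alternatives stayed on the same side, 31 lost and 8 gained a call. The causes were not tested. No paired analysis was possible because IAA is 1 library, for the comparisons with IAA. Depth limits members with about 100 reads, where a conversion more or less moves the rate.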
